A study of Danio rerio with 4 samples.

Results

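Cyclins, mitotic kinases and spindle genes were compared between uhrf1 mutant and wildtype zebrafish larvae at 120 hours post fertilization. The members were the probe sets of an Affymetrix zebrafish array that carry exactly 1 annotated gene symbol, and whose symbol begins with one of 32 names of cell-division genes, such as ccnb, plk, cenp or anapc. This gave 99 probe sets for 73 genes out of 15502 probe sets tested. The rule used symbols only and no measured value, but it was chosen with earlier results of these data known. Of the names, espl1 and tpx2 matched no probe set and are not analysed here, and 2 probe sets whose annotation joins a cyclin-dependent kinase to another gene were left out.

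There were 2 arrays of uhrf1 mutant larvae (replicates 1 and 2) and 2 arrays of wildtype larvae (replicates 1 and 3), all from total RNA. Per the labels' growth protocol, fish descended from uhrf1hi272+/- parents served most of the study's experiments, and a Tg(fabp10:hUHRF1-GFP) line, in which a liver promoter drives human UHRF1, was outcrossed to such carriers. The labels of the 4 arrays give only mutant or wildtype, and they state neither the allele, nor a transgene, nor the number of larvae behind a sample. Nothing says that replicates came from separate clutches, so the p-values rest only on how far these arrays lie apart, and that spread may be technical. One protocol line writes the age in days, against hours in the source label and the design text.

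Cell division is driven by cyclins, which rise and fall through the cycle and switch on cyclin-dependent kinases. D-type cyclins act early in G1 and release E2F transcription factors, E- and A-type cyclins carry cells through DNA replication, and cyclin B with Cdk1 starts mitosis. In mitosis, Aurora and Polo kinases build the spindle, condensins compact the chromosomes, the checkpoint proteins Mad2 and BubR1 hold back anaphase until every kinetochore is attached, and the anaphase-promoting complex then marks cyclin B and securin for destruction. Transcripts of many of these genes are abundant only in dividing cells. In whole larvae, fewer dividing cells and less RNA per cell cannot be told apart.

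Intensities are the values that the authors made with RMA, on a linear scale, and each change is the mutant mean minus the wildtype mean of log2(intensity + 1), given with the standard error (SE) of a limma fit over all probe sets. A probe set was called at a Benjamini-Hochberg adjusted p under 0.05. The arrays had median intensities of 29.4 to 30.1 in mutants and of 30.3 to 31.5 in wildtype larvae. The 18 hybridisation control probe sets, which report transcripts added in fixed amounts, were lower by a mean of 0.49 (log2) on the mutant arrays. Their single changes ranged from -0.82 to -0.06. Every change is thus relative to the bulk of the array, whose median change was -0.04. In the larvae, the 6 muscle and 10 neuron markers found on the array read at least 461 and 97.3 on every array, and 12 of 14 exocrine pancreas markers were called lower, with a median log2 change of -3.35. Of the myeloid markers 3 of 11 were called higher, namely cd74a, cd74b and mmp9. The 8 others were not called, with log2 changes from -0.13 (csf1ra) to 0.75 (lyz). Of 11 hepatocyte markers 2 were called higher and 0 lower, 6 were higher and 2 lower at an unadjusted p under 0.05, and tfa and fabp10a had log2 changes of -1.42 and -0.91. Of 14 retinal progenitor markers, which include ccnd1, limma called 0, while 7 were lower and 0 higher at p under 0.05 before adjustment. The part of these tissues in the values below was not tested. The uhrf1 transcript itself read 41.1 and 26.3 in mutants and 47.4 and 41.5 in wildtype larvae on the brighter of its 2 probe sets, at an adjusted p of 0.56 in limma, and between 8.97 and 9.91 on all arrays on the other.

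Limma called 0 of the 99 cell-division probe sets at an adjusted p under 0.05, where it called 1.5% of all probe sets (0.845% higher and 0.658% lower). At an unadjusted p under 0.05 there were 3 higher and 6 lower members (9.1% together, against 11.9% of all probe sets). Over all probe sets 5.1% were higher and 6.84% lower at that level. The members' median log2 change was -0.06, against -0.04 for all probe sets, and 40 of the 99 changes lay above 0 (40.4%, against 39.9% of all). Both mutant arrays lay above both wildtype arrays for 14 members (14.1%), where 14.9% of all probe sets had that order. Both mutant arrays lay below both wildtype arrays for 28 members (28.3%), where the share of all probe sets was 26.3%. The counts of the cell-division genes thus lay near those of the array as a whole in each of these measures.

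**Figure D1:**
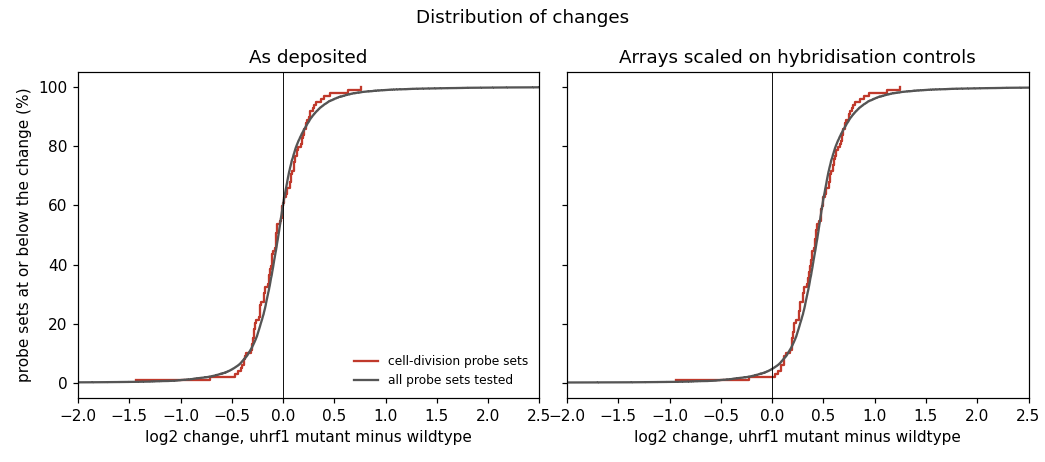
Share of probe sets (vertical axis, %) at or below each log2 change (horizontal axis, uhrf1 mutant minus wildtype) for the 99 cell-division probe sets and the 15502 tested, as deposited on the left and with arrays scaled on the hybridisation controls on the right. The curves lie close together, with medians of -0.06 and -0.04 on the left and of 0.43 and 0.45 on the right.

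The fit bounds most of the differences. The median SE over the members was 0.16. For 94 of the 99 (94.9%) the limma 95% interval lay within a log2 change of 1 in either direction. The share of all probe sets was 91.3%, so this bound is not particular to the members. The 5 exceptions among the members were the probe set of mad2l1, the brighter ones of kif20a and e2f4, the dimmer one of pttg1ipb and that of e2f3. The smallest absolute log2 change called on the array as deposited was 0.84, and the intervals of single members do not show that the groups are alike. The arrays were also compared in pairs. Over the members, the median absolute log2 difference was 0.18 for the pair of mutant arrays, 0.18 for the wildtype pair, and 0.15 to 0.21 for the pairs that join a mutant and a wildtype array. Differences of at least 0.5 (log2) were found for 10 members in the mutant pair, 2 in the wildtype pair and 11 to 13 in the mixed pairs, so that the wildtype arrays had the fewest. These were 10.1%, 2.0% and 11.1% to 13.1% of the members. Over all probe sets the shares were 9.1%, 7.3% and 10.7% to 15.8%. Of the members 18 were among the dimmest 25% of probe sets, below an intensity of about 12.6, where RMA compresses changes.

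The sign of small changes depends on the scale. With arrays scaled on the hybridisation controls, limma called 33 of the 99 members, all higher, where it called 33.1% of all probe sets higher. There 97 members had a change above 0, against 40 as deposited, with the median at 0.43 for the members and at 0.45 for all probe sets. That scaling moves every probe set by the same amount, so the members' median lies 0.02 below that of all probe sets on either scale by construction. Of the members' 95% intervals, 70 lay within a log2 change of 1 under that scaling, and 0 lay wholly beyond it. The share over all probe sets was not counted under that scaling. The 2 members below 0 there were the bright probe set of kif20a and the dimmer one of pttg1ipb, so the directions given below for all other lower members are those of the values as deposited, and each of them lies above 0 with that scaling.

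Genes that carry a symbol of the rule only because they are named for a partner (ccndbp1, cdk2ap2, cdk5r2a, cdk5rap2, cdk5rap3, pttg1ipa and pttg1ipb) had 10 of the probe sets. Of these 7 (70.0%, against 26.3% of all probe sets) had both mutant arrays below both wildtype arrays, and the median log2 change was -0.29. Of the 10 probe sets, 5 belonged to the 2 genes pttg1ipa and pttg1ipb, so they are not 10 separate genes. Above 0 lay 1 of the 10, that of cdk2ap2 at 0.29. The 89 other members had a median of -0.03. This grouping was made after the values were seen and was not tested.

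**Figure D2:**
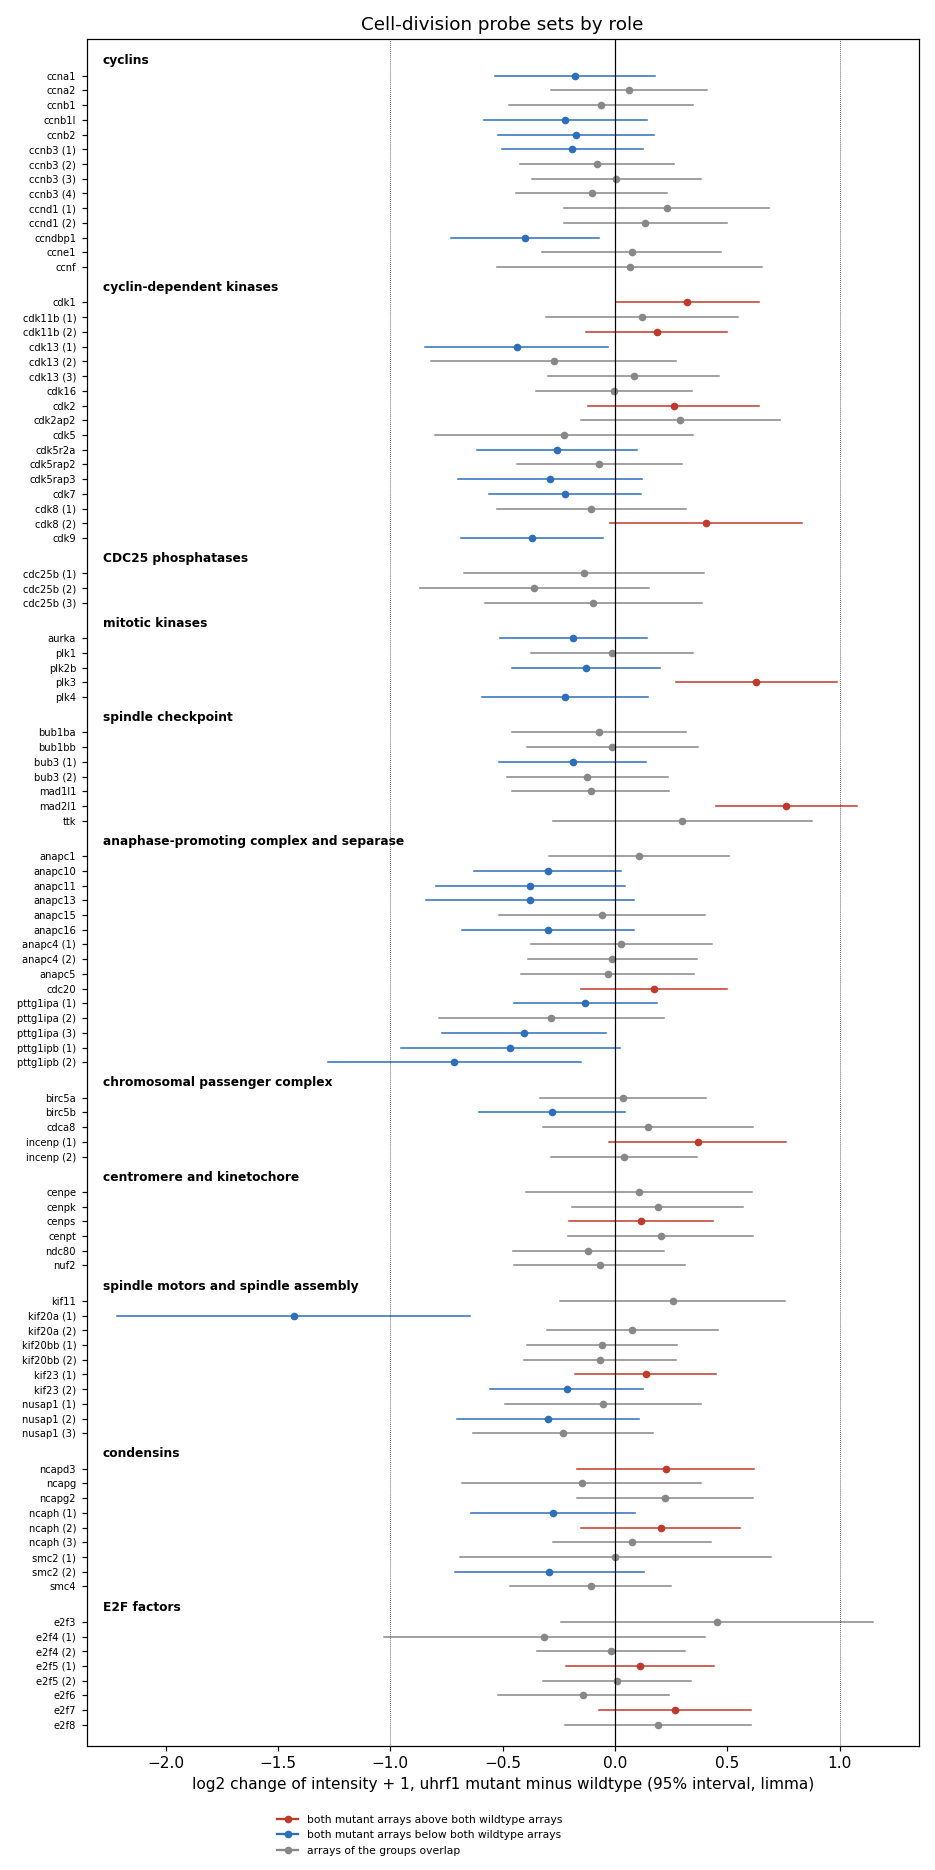
Log2 change (horizontal axis, uhrf1 mutant minus wildtype) with its limma 95% interval for each of the 99 probe sets, grouped by role, with probe sets of 1 gene numbered from the brightest. Dotted lines mark changes of -1 and 1, between which 94 intervals lie. Both mutant arrays lay above both wildtype arrays for 14 probe sets and below them for 28.

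Among the cyclins and ccndbp1, limma called 0 of 14 probe sets, and the median log2 change was -0.07. At an unadjusted p under 0.05, 1 was lower (7.1%, against 6.84% of all probe sets). This was ccndbp1, which is no cyclin. Both mutant arrays lay below both wildtype arrays for 5 of the 14, ccndbp1 among them (35.7%, against 26.3% of all probe sets). They lay above for 0, against 14.9% of all. ccnd1, the D-type cyclin of G1, had a bright probe set at 498 and 371 in mutants, against 341 and 393 in wildtype larvae. Its other probe set read 344 and 333 in mutants, against 282 and 337 in wildtype larvae. The groups overlapped on both, with log2 changes of 0.23 ± 0.19 and 0.13 ± 0.15 (SE).

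Of the cyclins that serve replication and mitosis, ccna2, ccnb1, ccnb2 and ccne1 are given here for their roles, after their values were seen. ccna2, cyclin A of S phase and G2, read 62.1 and 59.5 in mutants and 62.6 and 54.0 in wildtype larvae. ccnb1, the main mitotic cyclin, read 55.1 and 49.5 in mutants and 61.7 and 48.4 in wildtype larvae. The intervals of their log2 changes were -0.28 to 0.41 for ccna2 and -0.47 to 0.35 for ccnb1. ccnb2, a second cyclin B, read 26.2 and 28.1 in mutants and 28.7 and 32.9 in wildtype larvae (log2 change -0.18, SE 0.14), without overlap. ccne1, cyclin E of the G1 to S transition, read 15.4 and 12.3 in mutants and 12.2 and 14.0 in wildtype larvae.

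The 2 cyclin genes with the smallest p were neither core cyclins nor bright. ccndbp1, which encodes a protein that binds D-type cyclins and is not a cyclin, read 8.47 and 9.31 in mutants and 12.4 and 11.7 in wildtype larvae, all below the bound of the dimmest 25%. Its log2 change was -0.40 ± 0.13 (SE), at an adjusted p of 0.31 in limma. ccnb1l, a gene named for its likeness to cyclin B1, read 10.003 and 11.5 in mutants and 13.6 and 11.8 in wildtype larvae, with an adjusted p of 0.66. The 4 probe sets of ccnb3 had log2 changes from -0.19 to 0.01, and 3 of them were dim.

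Of the probe sets for cyclin-dependent kinases and genes named after them, 0 of 17 were called by limma. At an unadjusted p under 0.05, 1 was higher and 2 were lower (17.6% together, against 11.9% of all probe sets). Both mutant arrays lay above both wildtype arrays for 4 of the 17 (23.5%, against 14.9% of all). They lay below for 5 (29.4%, against 26.3% of all). cdk1, the kinase that cyclin B activates at the entry into mitosis, read 109 and 106 in mutants and 88.3 and 83.5 in wildtype larvae. Both mutant values lay above both wildtype values (log2 change 0.32, SE 0.13), and the limma adjusted p was 0.41. cdk2, the partner of cyclins E and A, read 74.0 and 60.3 in mutants and 53.5 and 57.7 in wildtype larvae (log2 change 0.26, SE 0.16). Both kinases are named after their values were seen.

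The kinases with the smallest p below 0 act mainly on transcription. cdk9, which phosphorylates RNA polymerase II to release it into elongation, read 88.9 and 90.2 in mutants and 119 and 114 in wildtype larvae (log2 change -0.37, SE 0.13), at an adjusted p of 0.33 in limma. cdk13, a kinase of the same substrate, had its brightest probe set at 36.7 and 37.0 in mutants and 57.3 and 44.0 in wildtype larvae (log2 change -0.44, SE 0.17). Its other probe sets overlapped between groups, with log2 changes of -0.27 and 0.08. cdk8, a kinase of the Mediator complex, had 1 probe set at 54.0 and 42.6 in mutants and 32.9 and 39.3 in wildtype larvae, a log2 change of 0.40. The other read 51.3 and 49.9 in mutants and 62.8 and 47.3 in wildtype larvae, a log2 change of -0.11, so the 2 probe sets of cdk8 differed in sign. cdk7, the kinase that activates other cyclin-dependent kinases, read 32.5 and 36.6 in mutants and 39.3 and 41.5 in wildtype larvae, and is named after its values were seen.

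Of cdc25b, the phosphatase that removes the inhibitory phosphates from Cdk1, limma called 0 of 3 probe sets, and 0 had an unadjusted p under 0.05. The brightest read 138 and 192 in mutants and 156 and 206 in wildtype larvae. The second read 51.5 and 36.6 in mutants and 62.5 and 50.1 in wildtype larvae. Arrays of the groups overlapped on all 3, whose log2 changes were between -0.36 and -0.10.

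In the Aurora and Polo kinase families 0 of 5 probe sets were called by limma, with 1 higher at an unadjusted p under 0.05. plk3, a Polo-like kinase known in mammals as a stress-responsive gene, read 93.5 and 106 in mutants, against 60.3 and 68.2 in wildtype larvae. Its mutant arrays lay above the wildtype arrays, for a ratio of means of 1.56 and a log2 change of 0.63 ± 0.15 (SE), and the limma adjusted p of 0.15 did not pass. The kinases that run mitosis itself had smaller changes. plk1, needed for centrosome maturation and spindle assembly, read 91.8 and 78.1 in mutants and 88.7 and 82.2 in wildtype larvae (log2 change -0.01, SE 0.15). aurka, Aurora A of the spindle poles, read 28.1 and 30.2 in mutants and 32.1 and 34.5 in wildtype larvae (log2 change -0.19, SE 0.13). plk4, the kinase that starts centriole duplication, read 35.2 and 37.4 in mutants and 46.7 and 38.6 in wildtype larvae. plk2b read 23.2 and 25.7 in mutants and 27.1 and 26.5 in wildtype larvae. Both mutant arrays lay below both wildtype arrays for aurka, plk4 and plk2b, which are 3 of the 5 (60.0%, against 26.3% of all probe sets). plk1 overlapped. The kinases plk1, aurka and plk2b are named after their values were seen.

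Among spindle checkpoint genes 0 of 7 probe sets were called by limma. At an unadjusted p under 0.05, 1 was higher (14.3%, against 5.1% of all probe sets). This was mad2l1, whose product binds Cdc20 at unattached kinetochores and keeps the anaphase-promoting complex off. It read 153 and 158 in mutants and 91.1 and 91.4 in wildtype larvae. The arrays of each group nearly coincided and the groups did not overlap. The ratio of means was 1.70 (155 ± 3.50 in mutants, 91.2 ± 0.218 in wildtype larvae, SD, n = 2 each) and the log2 change 0.76 ± 0.13 (SE). With the smallest p of all members it had a limma adjusted p of 0.058, just above the threshold. It was called when the arrays were centred on their medians (adjusted p = 0.0498), when each gene was given 1 value (0.044) and when arrays were scaled on the hybridisation controls (0.0100), and over the 10 alternatives at the level of probe sets the adjusted p ranged from 0.0100 to 0.16. The change was between 0.68 and 1.25 in all of these. This probe set is 1 of 7 whose identifiers share a cluster number, the others being annotated to cenpk and 4 further genes, and its assignment to mad2l1 rests on the annotation table alone.

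The other checkpoint genes did not share the order of mad2l1. bub3, which brings Bub1 and BubR1 to kinetochores, read 152 and 139 in mutants and 169 and 163 in wildtype larvae on its brighter probe set, and 54.7 and 63.3 in mutants and 67.3 and 61.2 in wildtype larvae on the other, with log2 changes of -0.19 and -0.12. mad1l1, the anchor of Mad2 at the kinetochore, read 27.7 and 28.5 in mutants and 32.8 and 28.1 in wildtype larvae. ttk, the kinase that recruits the checkpoint proteins, read 39.3 and 63.1 in mutants and 37.8 and 42.9 in wildtype larvae, with the 2 mutant arrays further apart than the groups. bub1ba and bub1bb had log2 changes of -0.07 and -0.01. mad1l1, ttk, bub1ba and bub1bb are named after their values were seen.

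**Figure D3:**
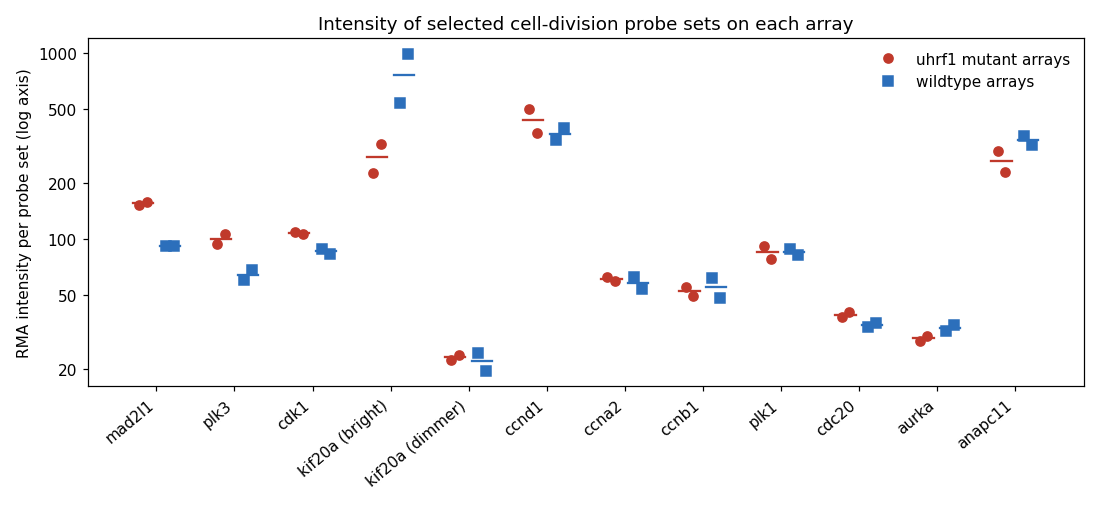
RMA intensity per probe set (vertical log axis) on each of the 2 uhrf1 mutant arrays (circles) and 2 wildtype arrays (squares) for 12 probe sets, with bars at the group means. The 12 were selected, several of them after their values were seen. mad2l1 reads 153 and 158 in mutants and 91.1 and 91.4 in wildtype larvae, and the bright probe set of kif20a lies lower in mutants. Those of ccnd1, ccna2, ccnb1 and plk1 and the dimmer one of kif20a overlap between groups.

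The anaphase-promoting complex is the ubiquitin ligase that ends mitosis, and cdc20 is its activator. Of its 15 probe sets, with those of genes named pttg1ip, 0 were called by limma. At an unadjusted p under 0.05, 2 were lower (13.3%, against 6.84% of all probe sets). These belonged to pttg1ipa and pttg1ipb, and no probe set of cdc20 or of an anapc gene passed that level. Both mutant arrays lay below both wildtype arrays for 8 of the 15 (53.3%, against 26.3% of all probe sets), and the median log2 change was -0.28. Of these 8, 4 belonged to pttg1ipa and pttg1ipb, genes named for an interaction with securin known in mammals, which are no subunits of the complex. The other 4 were anapc10, anapc11, anapc13 and anapc16, named here after their values were seen. anapc11, the RING subunit that binds the ubiquitin-conjugating enzyme, read 297 and 229 in mutants and 358 and 320 in wildtype larvae. anapc16 read 257 and 288 in mutants and 368 and 304 in wildtype larvae. anapc10, which helps to bind substrates, read 54.7 and 55.5 in mutants and 71.4 and 65.0 in wildtype larvae. The log2 changes of these 4 subunits lay between -0.38 and -0.30, with limma adjusted p-values from 0.46 to 0.55. The remaining subunits were nearer to 0: anapc1, anapc4, anapc5 and anapc15 had log2 changes from -0.06 to 0.11 over 5 probe sets, and their groups overlapped.

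cdc20 itself, also named after its values were seen, read 37.8 and 40.5 in mutants and 33.6 and 35.5 in wildtype larvae (log2 change 0.17, SE 0.13), without overlap. pttg1ipb had 2 probe sets of the same order. The dimmer read 27.8 and 43.4 in mutants and 53.3 and 62.4 in wildtype larvae (log2 change -0.71, SE 0.23), and the brighter read 71.4 and 61.5 in mutants and 77.5 and 109 in wildtype larvae (log2 change -0.47, SE 0.20). Their limma adjusted p-values were 0.29 and 0.44. Over the 10 alternatives, the change of the dimmer one lay between -1.03 and -0.22, and that of the brighter one between -0.71 and 0.02, the last with arrays scaled on the controls. pttg1ipa had log2 changes of -0.13, -0.28 and -0.41 on its 3 probe sets, of which the second overlapped between groups.

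In the chromosomal passenger complex, which corrects faulty attachments and directs cytokinesis, limma called 0 of 5 probe sets, and 0 had an unadjusted p under 0.05. incenp, its scaffold, read 38.6 and 35.7 in mutants and 32.1 and 25.5 in wildtype larvae on the brighter probe set (log2 change 0.37, SE 0.16), and between 8.53 and 9.35 on all arrays on the dim one. birc5b, a survivin gene, read 15.2 and 16.6 in mutants and 19.2 and 19.7 in wildtype larvae (log2 change -0.28, SE 0.13). Its paralog birc5a read 96.0 and 116 in mutants and 105 and 101 in wildtype larvae, where the groups overlapped. Thus incenp lay above and birc5b below wildtype, each without overlap, and neither passed. cdca8, the borealin gene, read 56.1 and 45.6 in mutants and 52.5 and 39.6 in wildtype larvae, and like birc5a is named after its values were seen.

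For centromere and kinetochore genes 0 of 6 probe sets were called by limma (0 at an unadjusted p under 0.05), and 3 were dim. cenpt, which links centromeric chromatin to the outer kinetochore, read 41.6 and 31.8 in mutants and 32.0 and 30.9 in wildtype larvae (log2 change 0.20, SE 0.17). cenpk, of the inner kinetochore, read 13.3 and 10.7 in mutants and 10.8 and 9.88 in wildtype larvae. In both genes 1 mutant array lay above the wildtype arrays and the other lay between them. ndc80 and nuf2, partners in the complex that grips spindle microtubules, had log2 changes of -0.12 and -0.07, and cenpe, a kinetochore motor, had 0.11. These 3 genes are named after their values were seen.

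Of the spindle motor and spindle assembly probe sets 0 of 10 were called by limma, and 1 was lower at an unadjusted p under 0.05. This was the bright probe set of kif20a, a kinesin of the central spindle that is needed for cytokinesis. It read 225 and 324 in mutants and 537 and 992 in wildtype larvae. The wildtype arrays differed from each other by 0.88 (log2) and the mutant arrays by 0.52, the groups did not overlap, and the ratio of wildtype to mutant means was 2.78. The log2 change of -1.43 ± 0.32 (SE) was the largest of all members in absolute size, at an adjusted p of 0.13 in limma. It was called without wildtype replicate 1 (-1.87, adjusted p = 0.0059) and with an intensity-dependent robust prior (adjusted p = 0.042), and the adjusted p ranged up to 0.37 without mutant replicate 1. The other kif20a probe set read 22.4 and 23.8 in mutants and 24.3 and 19.6 in wildtype larvae (log2 change 0.08, SE 0.16). The 2 probe sets of kif20a differed in sign and by 1.51 in log2 change. Both carry the kif20a symbol, and without probe sequences it is not known which of them reports the transcript. With 1 value per gene, the log2 change of kif20a was -0.68, at an adjusted p of 0.16 in limma.

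Other motors gave small differences. kif23, the kinesin of the centralspindlin complex, had 2 probe sets of opposite order. One read 45.4 and 45.0 in mutants and 41.7 and 40.4 in wildtype larvae, the other 20.6 and 23.6 in mutants and 25.3 and 26.2 in wildtype larvae, with log2 changes of 0.14 and -0.22. nusap1, which bundles spindle microtubules, had log2 changes of -0.05, -0.30 and -0.23. kif11, the motor that pushes spindle poles apart, read 59.8 and 45.3 in mutants and 37.8 and 49.9 in wildtype larvae, and is named after its values were seen. Neither nusap1 nor kif11 passed the test.

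Condensin probe sets, which report the complexes that compact mitotic chromosomes, gave 0 of 9 calls in limma, 0 values of p under 0.05 before adjustment, and a median log2 change of 0.00. ncaph, a subunit that closes the condensin I ring, had 3 probe sets whose order disagreed. The first read 13.2 and 15.8 in mutants and 18.5 and 16.9 in wildtype larvae, the second 14.5 and 16.9 in mutants and 12.998 and 14.0 in wildtype larvae, and the third between 7.30 and 8.74. smc2, one of the ATPase arms of both condensins, read 28.1 and 15.3 in mutants and 22.7 and 18.9 in wildtype larvae on the brighter probe set, and 13.2 and 16.4 in mutants and 20.2 and 16.6 in wildtype larvae on the other. The mutant arrays differed by 0.84 (log2) on the first of these, more than the groups did. smc4, the other arm, read 118 and 105 in mutants and 128 and 113 in wildtype larvae and is named after its values were seen.

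Of 8 probe sets for E2F transcription factors, which turn on genes for replication and division or, in the case of e2f7 and e2f8, repress them, 0 were called by limma (0 at an unadjusted p under 0.05) and 5 were dim. e2f3, an activating E2F, read 48.7 and 26.2 in mutants and 24.6 and 27.1 in wildtype larvae, so that 1 mutant array stood apart and the other lay within the wildtype range. Its log2 change was 0.45 ± 0.28 (SE). e2f7 read 8.17 and 7.09 in mutants and 6.27 and 6.06 in wildtype larvae (log2 change 0.27, SE 0.14) near the lowest intensities of the array. e2f4, an E2F of resting cells that is named after its values were seen, read 93.9 and 53.0 in mutants and 102 and 76.0 in wildtype larvae on the brighter probe set. The e2f3, e2f4 and smc2 probe sets were the 3 that differed most between the mutant arrays, each being higher in replicate 1.

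The members not described so far are given for completeness, and are named after their values were seen. In log2 change, the cyclins ccna1 and ccnf had -0.18 and 0.07. Among the genes named cdk, cdk2ap2 had 0.29 and cdk16 had -0.01, while cdk5, a kinase active in neurons, had -0.23. Its neuronal activator cdk5r2a had -0.26, and the genes cdk5rap2 and cdk5rap3, whose symbols begin with cdk5, had -0.07 and -0.29. Both probe sets of cdk11b, a kinase linked to splicing, lay above 0 at 0.12 and 0.18. anapc13 read 94.6 and 68.9 in mutants and 98.7 and 112 in wildtype larvae. The inner kinetochore gene cenps had 0.12. Of the condensin genes, ncapd3 and ncapg2 of condensin II had 0.22 each and ncapg of condensin I had -0.15. kif20bb had -0.06 and -0.07, e2f5 had 0.11 and 0.01, e2f6 had -0.14 and e2f8 had 0.19, and none of these genes had an unadjusted p under 0.05 in limma.

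Where a gene had several probe sets, they served as a check within the array. Some probe sets of pttg1ipa, nusap1 and ccnb3 have identifiers that differ only in the suffix, and these are not known to be independent. Of the 19 genes with several probe sets, 8 had log2 changes of both signs. In 2 of them, kif23 and ncaph, 1 probe set had both mutant arrays above and another had both below the wildtype arrays. The range within a gene was over 0.5 (log2) for kif20a, cdk13 and cdk8. The probe sets of anapc4 differed by 0.04. Those of bub3, ccnd1, cdk11b, kif20bb and pttg1ipa, among others, had 1 sign each.

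**Figure D4:**
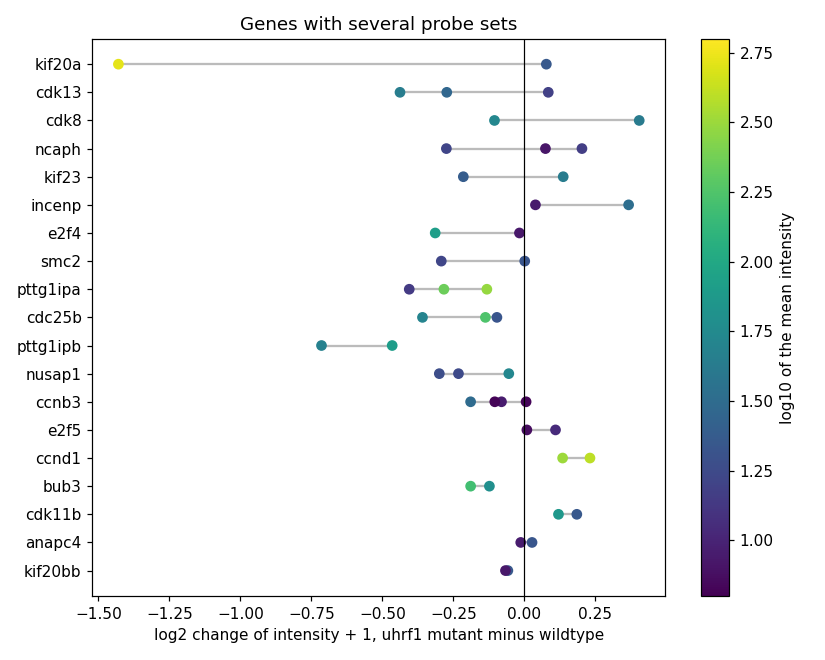
Log2 change (horizontal axis, uhrf1 mutant minus wildtype) of each probe set of the 19 genes with several, joined by a line per gene and coloured by log10 of the mean intensity. The probe sets of kif20a lie at -1.43 and 0.08, and 8 genes have probe sets on both sides of 0.

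Other genes of the cell cycle came from a list of 99 symbols, of which 73 were on the array outside the rule. Limma called 0 of the 73, with 2 higher and 2 lower at an unadjusted p under 0.05. That is 5.5% of the list, against 11.9% of all probe sets. The median log2 change of the 73 genes was -0.02, and on the brightest probe set per gene the groups overlapped for 53 (72.6%). The share was 53.4% for the member genes counted in that way, and 58.7% for all probe sets, dim ones included. The 2 higher ones were pcna, the sliding clamp of replication, at 1388 and 1234 in mutants and 1023 and 877 in wildtype larvae, and anln, a scaffold of the cytokinetic ring, at 79.0 and 53.1 in mutants and 48.0 and 40.4 in wildtype larvae. The 2 lower ones were hmgb2b, a chromatin protein of dividing cells, at 430 and 418 in mutants and 566 and 555 in wildtype larvae, and kif18a, a motor that dampens chromosome movement, at 14.5 and 16.7 in mutants and 22.7 and 19.2 in wildtype larvae. Their limma adjusted p-values were 0.29, 0.41, 0.29 and 0.39. The proliferation marker mki67, named after its values were seen, read 70.0 and 68.7 in mutants and 87.3 and 78.1 in wildtype larvae (log2 change -0.25, SE 0.14). Thus pcna and anln lay above wildtype on both mutant arrays, hmgb2b, kif18a and mki67 lay below, and none of them passed.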

How the data were processed

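The authors deposited 1 intensity per probe set and array, on a linear scale; the submitters' processing notes name RMA. RMA corrects background, normalizes across arrays and summarises probes, and compresses changes near background. The sources used here do not give its software or settings. The 115 array controls were left out. A platform annotation table named the probe sets. Current symbols were looked up by Entrez ID, which was matched for 96 of the 99 members, and this left the membership as it was. No genome coordinates and no sequences were used.

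Values were fitted genome-wide as log2(intensity + 1) with limma 3.58.1 in R 4.3.3 (lmFit, eBayes, 1 prior variance, 2 residual and 4.04 prior degrees of freedom) over 15502 probe sets. Ratios are of group means of the deposited intensities. P-values are two-sided. An exact permutation test of 2 arrays against 2 could not pass the threshold and was not used. Genes of the other lists were represented by their brightest probe set. The number of arrays limits the precision.

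On simulated data for mutant against wildtype, with 15502 probe sets, the fit called 23 of 67 changed by 1 (log2), 63 of 71 changed by 2 and 62 of 62 changed by 4, with 5 false calls among 153 calls. Each simulated variance came from the prior that limma fitted to these data, with independent normal noise and 200 changed probe sets. The counts thus check the fit under its own assumptions and do not give its power or error on the real arrays.

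Named members were, by rule, any called (none), the 2 genes with the smallest p in each of 11 roles, the 3 brightest genes, and genes whose probe sets differed in sign, with uhrf1; others are marked. Members and lists were chosen with earlier results of these data known. Alternatives were quantile normalization, median centring, scaling on the hybridisation controls, removal of the dimmest 25%, a pseudocount of 16, a robust prior that follows intensity, 1 value per gene and leaving out each array.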

Additional observations from a re-analysis of the deposited data

How the results depend on the processing

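As deposited, 0 of 99 members were called, and this count was also 0 with quantile normalization, without the dimmest 25% (81 members left), with a pseudocount of 16 and in 3 of 4 leave-one-out fits. It was 1 with median centring and with 1 value per gene (mad2l1 in both), 1 with the intensity-dependent robust prior (kif20a), between 0 and 1 with an array left out (kif20a without wildtype replicate 1) and 33 after scaling on the hybridisation controls; there, 19 of the 73 other cell-cycle genes were called. Over the whole array, limma called 33.7% with that scaling, 1.4% with median centring and 2.5% with the robust prior. It called 2.0% with 1 value per gene, 1.3% with quantile normalization, 2.7% without the dimmest 25% and 0.52% with a pseudocount of 16. The members' median log2 change was -0.012 with median centring, 0.43 with scaling on the controls and between -0.079 and 0.00035 with an array left out, against -0.064 as deposited. That scaling moves every probe set by the same 0.49, and with it these members, below 0 as deposited, had changes above 0: ccndbp1 0.090, cdk9 0.12, pttg1ipa 0.084, cdk13 0.052, birc5b 0.21, ncaph 0.22, nusap1 0.19, cdc25b 0.13, smc2 0.20, kif23 0.27, ccnb1l 0.27, plk4 0.27, ccnb3 0.30 and bub3 0.30, each on the probe set with the smallest p. anapc4, at 0.03 as deposited, had -0.041 without mutant replicate 2 and -0.14 without wildtype replicate 1. On those probe sets of the 26 named genes, 16 of 256 values under 10 alternatives (1 value per gene not counted) turned sign. Of these 16, 14 did so with scaling on the hybridisation controls. As deposited 0 members were called, so a value that stayed uncalled is no measure of stability. Over all probe sets, 233 were called as deposited, against 80 with a pseudocount of 16, 394 with the robust prior, 154 without mutant replicate 1 and 5223 with scaling on the controls. Leaving out an array leaves a group with 1 array, assumed to vary like the other group. No paired analysis was possible because the sample labels state no pairing of mutant with wildtype samples. The groups share only replicate number 1, which is not said to mark a pair. With 2 arrays a group and values as deposited, the smallest absolute change called on the array was 0.84 (log2); mad2l1 was called at 0.81 with median centring and at 0.76 with 1 value per gene.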
